A study of Mus musculus with 20 samples.

Results

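Monomethylation of histone H3 at lysine 4 (H3K4me1) was compared between fasted livers that lack Ppara and wild-type livers. The wild-type (WT) group and the Ppara -/- group (Ppara KO) each held 2 livers of male C57BL/6 mice, 9 weeks old, taken after a 24 hour fast. A Cpt2 deletion restricted to the liver (Cpt2 L-/-, here Cpt2 KO) and its combination with the Ppara knockout (DKO) gave 2 further H3K4me1 livers each, and H3K27ac was profiled in the WT and Ppara KO livers as well. All of these mice were of the same strain and fasted alike. The Ppara deletion is described as whole-body in the labels of the DKO, so cells other than hepatocytes lack the gene too, and the driver of the liver deletion is not given in the sources used here. Of 20 samples in the series, the 4 H3K4me1 libraries of WT and Ppara KO make up this comparison.

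Intervals were taken from the H3K4me1 consensus of the study, which holds 103014 of them. An interval counted as called in a library where a deposited peak overlapped it, and its value was the highest fold enrichment over pooled input among those peaks. Of these intervals, 82337 were called in at least 1 of the 4 livers and 24616 in all 4. Those called in both Ppara KO livers and in neither WT liver are named gained here, and those called in both WT livers and in neither Ppara KO liver are named lost. The names stand for patterns of calls and for no test. Each interval was assigned to the protein-coding gene whose body lies nearest to its middle, distances are from that middle, and coordinates are those of mm10. The gene table used gives no exons or introns, so an interval is described as inside a gene body or by its distance from one.

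H3K4me1 marks enhancers, the distant stretches of DNA from which transcription factors act on promoters, and the shoulders of active promoters. It is laid down before or together with activation, and acetylation of lysine 27 (H3K27ac) is found at the enhancers that are active at the time. PPARA is a nuclear receptor that binds fatty acids and pairs with RXR on DNA, on a repeat of the AGGTCA motif with a single base between its copies. In the fasted liver it switches on genes for the uptake, activation and oxidation of fatty acids in peroxisomes and mitochondria, for ketone body synthesis and for the hormone FGF21.

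The 2 WT lists and that of Ppara KO replicate 1 were alike, and that of Ppara KO replicate 2 stood apart. The WT lists held 66862 and 69158 peaks over 52.5 and 53.2 Mb, and the Ppara KO lists 69790 and 61189 peaks over 53.3 and 42.7 Mb. The smallest peak, which MACS2 ties to its fragment length, was 199 bases wide in both WT lists, 200 in Ppara KO replicate 1 and 216 in replicate 2. Across the intervals called in all 4, log2 folds of Ppara KO replicate 2 correlated at 0.382 and 0.337 with those of the WT livers and at 0.446 with those of Ppara KO replicate 1, against 0.695 between the WT livers. These coefficients are across intervals, which are not replicates. Replicate 1 correlated at 0.605 and 0.613 with WT. Read depth is unknown, so a missing peak is a missing call and no proof that the mark was absent. Of 16 hepatocyte marker genes, 15 had an H3K4me1 interval, and of 12 liver endothelial markers, 11 did. This held for 5 of 10 cholangiocyte markers, 5 of 15 Kupffer cell and macrophage markers, 3 of 13 stellate cell markers, 3 of 11 lymphocyte markers and 3 of 10 markers of other tissues.

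Promoters of 6 genes are shown because an interval that differed in its calls overlaps the window from 250 bases before to 50 after a transcription start. The sequences are those of RefSeq on GRCm38.p6, the assembly behind mm10, and run 5′ to 3′ on the strand of the gene. Capitals mark the motif AGGTCA, and also the repeat of 2 such copies with any 1 base between them where it was matched with up to 2 mismatches among its 12 fixed letters. Both strands were searched. The first 3 windows overlap lost intervals and the last 3 gained ones. They were chosen among genes of the lists used here after their values were seen.
Fitm1: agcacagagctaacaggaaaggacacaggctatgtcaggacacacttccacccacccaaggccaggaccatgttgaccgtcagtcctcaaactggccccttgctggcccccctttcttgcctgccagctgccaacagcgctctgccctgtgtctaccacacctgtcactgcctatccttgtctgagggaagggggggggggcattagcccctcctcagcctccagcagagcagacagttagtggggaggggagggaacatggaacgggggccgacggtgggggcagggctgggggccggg
Slc27a1: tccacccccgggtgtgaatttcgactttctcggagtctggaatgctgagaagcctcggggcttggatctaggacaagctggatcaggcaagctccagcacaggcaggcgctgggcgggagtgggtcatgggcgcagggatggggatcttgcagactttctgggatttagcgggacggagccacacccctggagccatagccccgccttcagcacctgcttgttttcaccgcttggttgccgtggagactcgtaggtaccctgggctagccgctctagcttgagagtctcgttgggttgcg
Mfsd2a: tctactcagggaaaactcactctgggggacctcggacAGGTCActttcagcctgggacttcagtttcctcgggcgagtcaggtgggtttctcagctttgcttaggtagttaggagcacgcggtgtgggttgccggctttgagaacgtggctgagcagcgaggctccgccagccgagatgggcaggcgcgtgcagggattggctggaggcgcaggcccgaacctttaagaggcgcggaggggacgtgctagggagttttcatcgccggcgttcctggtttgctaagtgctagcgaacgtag
Cyp2b10: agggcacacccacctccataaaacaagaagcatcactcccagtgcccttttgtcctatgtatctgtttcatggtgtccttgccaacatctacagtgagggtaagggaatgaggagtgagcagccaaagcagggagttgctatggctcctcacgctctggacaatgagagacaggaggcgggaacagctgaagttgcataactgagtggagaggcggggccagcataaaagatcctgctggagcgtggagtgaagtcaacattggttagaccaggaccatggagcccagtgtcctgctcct
Sult2a8: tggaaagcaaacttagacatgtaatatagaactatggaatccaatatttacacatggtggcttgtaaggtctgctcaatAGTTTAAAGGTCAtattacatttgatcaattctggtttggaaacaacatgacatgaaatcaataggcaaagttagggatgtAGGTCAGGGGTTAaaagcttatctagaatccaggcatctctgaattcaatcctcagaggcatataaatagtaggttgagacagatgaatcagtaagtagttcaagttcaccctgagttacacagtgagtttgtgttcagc
Scp2: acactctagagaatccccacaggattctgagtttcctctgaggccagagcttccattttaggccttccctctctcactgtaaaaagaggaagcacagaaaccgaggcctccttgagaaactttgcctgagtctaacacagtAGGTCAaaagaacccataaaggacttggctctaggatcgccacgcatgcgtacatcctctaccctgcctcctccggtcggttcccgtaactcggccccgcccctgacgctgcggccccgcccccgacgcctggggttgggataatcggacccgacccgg

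The window of Fitm1, which encodes a protein of lipid droplet formation, lies at chr14:55575424-55575723 on the plus strand and wholly inside a lost interval (chr14:55575219-55575980). That interval had folds of 6.17 and 5.20 in the WT livers, no peak in the Ppara KO livers, and H3K27ac folds of 10.6 and 11.2 in WT with none in Ppara KO. The window of Slc27a1, a fatty acid transport protein, at chr8:71569347-71569646 on the plus strand was likewise wholly inside a lost interval (chr8:71568865-71569713), with WT folds of 11.6 and 10.4. Its H3K27ac folds were 16.3 and 19.4 in WT and 6.35 and 7.12 in Ppara KO. Neither window holds the motif in these letters.

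At Mfsd2a, a transporter of lysophospholipids, the window at chr4:122961139-122961438 on the minus strand holds 1 copy of AGGTCA. It overlaps a lost interval (chr4:122961266-122961859; WT 6.79 and 4.83), and a gained interval (chr4:122959903-122961066; Ppara KO 4.71 and 4.32) lies beside it within the gene. H3K27ac at this start was 24.4 and 26.4 in WT and was called near the gained interval in Ppara KO replicate 1 alone, at 8.42. Peaks on the 2 sides of the start thus had opposite call patterns. The window of Sult2a8, a sulfotransferase, at chr7:14438502-14438801 on the minus strand, has 2 copies and 2 matches of the repeat. The gained interval there had folds of 4.51 and 7.29, with H3K27ac between 15 and 19.6 in all 4 livers. Scp2, a sterol carrier and peroxisomal thiolase (chr4:108118498-108118797, minus strand), has 1 copy, and its gained interval had folds of 3.27 and 4.08. Cyp2b10, a cytochrome that metabolises drugs (chr7:25897408-25897707, plus strand), has none, and folds there were 4.50 and 3.67 in the Ppara KO livers.

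Over all 21262 promoter windows, 14.7% held AGGTCA, compared with 26.7% of the 150 windows that overlap a gained interval and 8.45% of the 142 that overlap a lost one. For the repeat the shares were 3.31%, 8.0% and 1.41%. The median GC content of the same 3 groups of windows was 56.3%, 57.7% and 64.0%, and its part in the shares was not tested. A match is a run of letters and not a bound site.

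Calls differed in both directions between the genotypes. Of the 82337 intervals, 3608 (4.38%) were gained and 5035 (6.12%) lost. The lost intervals had a median fold of 5.67 in the WT livers, from 2.50 to 21.2, and the gained ones a median of 5.57 in the Ppara KO livers, from 2.47 to 17.8. Most were thus modest peaks: 30 lost and 6 gained intervals reached a fold of 10 in both livers that had them. Without Ppara KO replicate 2, 10311 intervals would count as gained and 6403 as lost. With 2 livers against 2, an exact two-sided test of a single interval cannot go below a p of 0.333, so the calls carry no test. The mark per cell and the share of cells that carry it cannot be told apart in whole liver.

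The lost interval with the highest lower fold lay inside Slc39a5 (chr10:128395331-128397908), which encodes a zinc transporter. Its folds were 17.2 and 18.2 in the WT livers, and it had no peak in either Ppara KO liver. The next was inside Sema5b, a semaphorin (chr16:35631234-35636426), with 21.2 and 14.8 in WT. An interval 10452 bases from Trarg1, a regulator of glucose transporter trafficking, had 13.4 and 19.3, and 1 inside Pik3c2g, a class II phosphoinositide 3-kinase, had 12.6 and 13.4. All of these had folds above the library medians, which ran from 5.83 to 6.00. The other 8 of the 12 were near Gtf3c1, Unc79, Nav2, Cops7b, Nt5m, Ifngr2, Lhx6 and Elmod3, with WT folds between 11.4 and 16. Ifngr2 is a chain of the interferon gamma receptor, and Gtf3c1 is a subunit of a general factor for RNA polymerase III.

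Of these 12 intervals, 11 also had H3K27ac in both WT livers and in neither Ppara KO liver, beside 8.0% of all lost intervals. At Sema5b the H3K27ac folds were 21.1 and 14.5, and near Trarg1 they were 23.1 and 23.3. The exception was the interval near Nt5m, a mitochondrial nucleotidase, where WT replicate 2 alone had an H3K27ac peak. In the livers that the choice did not use, all 12 had an H3K4me1 peak in both Cpt2 KO livers and in neither DKO liver. The 12 were chosen for high folds, and this pattern was met by 12.4% of all lost intervals. At Slc39a5 the Cpt2 KO folds were 9.75 and 20.5, and at Pik3c2g they were 28.5 and 15.2.

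The 12 gained intervals were lower, between 9.14 and 14.1 in the Ppara KO livers. The first lay 25252 bases from Lratd2 (chr15:60793105-60794384), with folds of 10.3 and 11.8 and no WT peak. An interval 12368 bases from Nrg4, which encodes a secreted ligand of the ErbB4 receptor, had 9.26 and 14.1 (chr9:55295663-55296381). An interval inside Acmsd, an enzyme of tryptophan breakdown, had 9.23 and 12.3 (chr1:127754439-127755919). Neither had a peak in WT. The others were near Poldip3, Ckap2l, Lmcd1, Tuft1, Copb1, Myh10, Eln, Gm14279 and Xpc, among them genes for elastin (Eln), a nonmuscle myosin (Myh10) and a protein of nucleotide excision repair (Xpc). H3K27ac was called in both Ppara KO livers and in neither WT liver at 9 of the 12, beside 16.5% of all gained intervals. Its folds were 24.3 and 20.7 near Nrg4 and 22.7 and 24.6 at Acmsd. It was called in none of the 4 livers at the intervals of Ckap2l, Lmcd1 and Eln. All 12 had an H3K4me1 peak in both DKO livers, as did 76.1% of all gained intervals. But 9 of the 12 had one in both Cpt2 KO livers too, beside 27.7% of all gained intervals. At Xpc, for example, folds were 12.6 and 7.54 in Cpt2 KO and 14.6 and 14.7 in DKO.

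**Figure D1:**
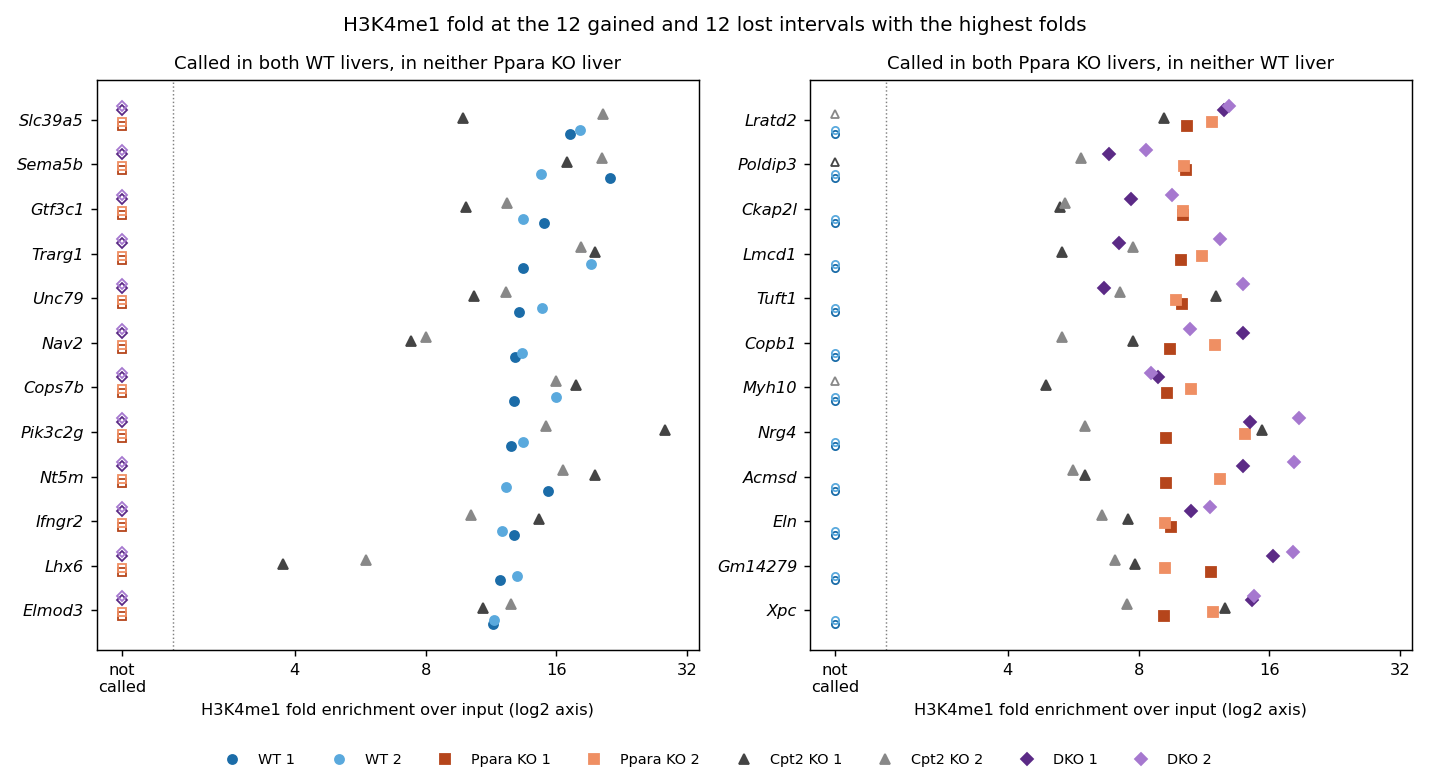
H3K4me1 fold enrichment over input (horizontal log2 axis) of the 12 lost intervals (left) and 12 gained intervals (right) with the highest folds, named by nearest gene, with 1 point per liver and open symbols for livers with no peak. On the left the DKO livers have no peak at any interval and the Cpt2 KO livers have a peak at all 12, while on the right all DKO livers and most Cpt2 KO livers have a peak.

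Among the 24616 intervals called in all 4 livers, no difference in fold passed the test. The largest differences on which both replicate pairs agreed lay near Cebpb and Fitm2 (lower in Ppara KO) and near Diras2 (higher). Limma called 0 intervals higher (0.0%) and 0 lower (0.0%) at an adjusted p under 0.05, where p values measure the spread between these livers. Without Ppara KO replicate 2 it called 6, all lower, in a fit where the lone Ppara KO liver is assumed to vary like the WT livers. At an unadjusted, two-sided limma p under 0.05 there were 1157 higher (4.7%) and 1233 lower (5.01%), or 2390 in both directions together. The differences of the 2 same-numbered pairs had the same sign at 13429 intervals (54.6%). The 2 Ppara KO values lay wholly above the WT values at 4789 intervals (19.5%) and wholly below at 5183 (21.1%). A difference of at least 1 log2 in both pairs was found at 28 intervals in the direction of higher values in Ppara KO (0.114%) and at 39 in the other (0.158%). The pairs share a number and not an animal.

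By the smaller of the 2 pair differences, the interval farthest below WT lay 31461 bases from Cebpb, which encodes a bZIP transcription factor of hepatocytes (chr2:167719253-167724534). Folds were 22.1 and 21.2 in the WT livers and 7.31 and 6.50 in the Ppara KO livers, or -1.64 ± 0.25 (SE) on the log2 scale (limma adjusted p = 0.0799). With each liver left out in turn it ran from -1.72 to -1.55, and limma adjusted p from 0.00923 (without Ppara KO replicate 2) to 0.752 (without WT replicate 2). With the smallest peak width as a covariate, limma adjusted p was 0.689. H3K27ac at this interval had folds of 18.8 and 19.3 in WT and no peak in Ppara KO. In livers not used for the choice, H3K4me1 folds were 16 and 21.3 in Cpt2 KO and 6.29 and 10.8 in DKO.

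Next by the same measure came an interval inside Fitm2 (chr2:163468698-163471868), a relative of Fitm1 that also acts in lipid droplet formation. Its folds were 13.4 and 12.8 in WT and 4.83 and 3.00 in Ppara KO, or -1.77 ± 0.30 (SE) on the log2 scale (limma adjusted p = 0.0810). It had peaks of 5.47 and 10.7 in the Cpt2 KO livers and none in the DKO livers. Of the 12 largest, Agpat2, an acyltransferase of phospholipid and triglyceride synthesis, had WT folds of 14.8 and 12.4 and Ppara KO folds of 6.54 and 4.0 at an interval 5278 bases away. Hsd17b11, a dehydrogenase found on lipid droplets, had 12.6 and 14.1 against 5.43 and 4.33 at an interval 10931 bases away. The remaining 8 lay near Zbtb7c, Lrrn4, Fcgrt, Alox5ap, Morn1, Srrm4, Tcf7l1 and Sfxn5. Fcgrt encodes the neonatal Fc receptor and Alox5ap a protein of leukotriene synthesis. Limma adjusted p values of the 12 ran from 0.0799 to 0.237. Of the 12, 5 had H3K27ac in both WT livers and in neither Ppara KO liver, beside 4.09% of all intervals called in all 4. Another 2 had no H3K27ac peak in any of these livers.

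In the opposite direction the first was 324931 bases from Diras2, a small GTPase of the Ras family (chr13:52178758-52180131). Folds were 3.00 and 3.00 in WT and 9.22 and 10.7 in Ppara KO, or 1.74 ± 0.29 (SE) on the log2 scale (limma adjusted p = 0.0810). H3K27ac there was also higher in Ppara KO in value, with 13.3 and 14.0 in WT and 30.9 and 31.4 in Ppara KO (limma adjusted p = 0.0624). An interval 296 bases from Plin3, a coat protein of lipid droplets (chr17:56276966-56280367), had 5.57 and 5.43 in WT and 14.0 and 13 in Ppara KO. Its H3K27ac folds overlapped between the groups, at 13.2 and 19.1 against 17.5 and 21.3. Intervals inside Dglucy, Tyw1 and Gldn had WT folds between 4.29 and 6.25 and Ppara KO folds between 11.3 and 16. The others lay near Tmem67, Tox, Prss29, Smtn, Sstr3, Tdh and Gm33887, and limma adjusted p values of the 12 ran from 0.081 to 0.256. Of the 12, 3 had H3K27ac in both Ppara KO livers and in neither WT liver, beside 2.61% of all intervals called in all 4.

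**Figure D2:**
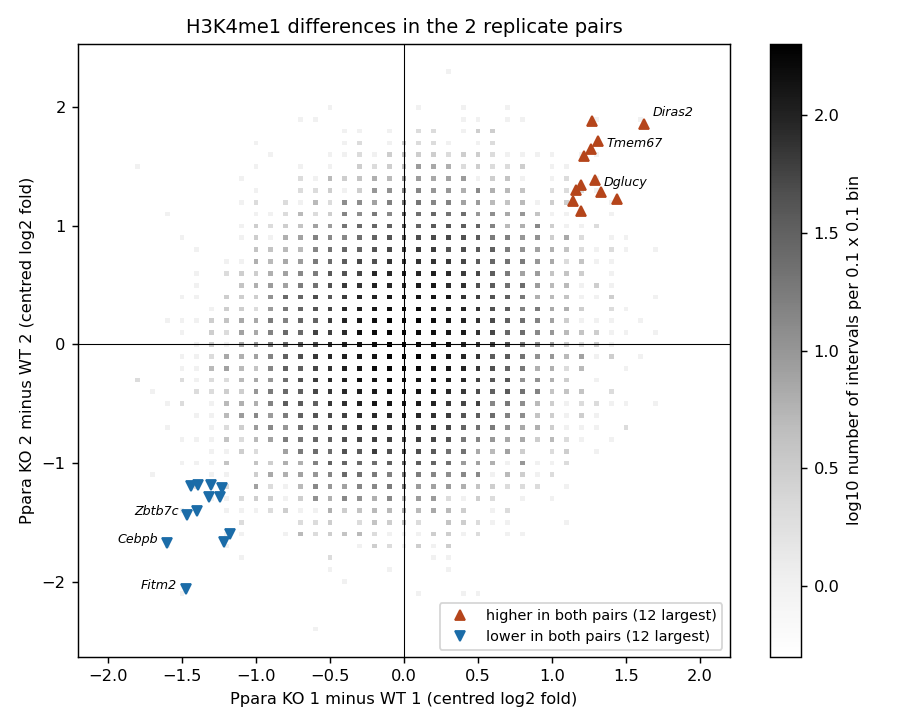
Difference in centred log2 H3K4me1 fold of Ppara KO replicate 2 minus WT replicate 2 (vertical axis) against replicate 1 minus replicate 1 (horizontal axis) for the 24616 intervals called in all 4 livers, counted in bins of 0.1 by 0.1, with the 12 largest values in each direction as triangles. Most intervals lie within 1 log2 of 0 in both pairs, and Cebpb and Fitm2 lie farthest out at the lower left and Diras2 at the upper right.

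At the threshold of 1 log2, the intervals just inside were near Tmem86a (smaller difference 1.00) and Adtrp (-1.01), and those just outside near Nr4a1 (0.99) and Spsb3 (-0.996). The sets were next read in livers that had no part in choosing them. Of the 28 higher in both pairs, 27 had a higher mean in DKO than in Cpt2 KO, with a median log2 difference of 0.51. Of the 39 lower, 28 could be compared, and 25 of these had a lower mean in DKO, with a median of -0.55. Over all 19526 intervals called in the 8 livers, 48.3% were higher. Limma called 0 of 24289 intervals between DKO and Cpt2 KO, so these are directions and not calls. A model of whether the Ppara difference itself differed between livers with and without Cpt2 gave 0 limma calls of 19526, with 566 at an unadjusted p under 0.05. H3K27ac was called in all 4 livers at 10 of the 28 and 17 of the 39. Its value was higher in Ppara KO at 10 of 10 (median log2 difference 0.51), with 1 limma call, and lower at 15 of 17 (median -0.39), with 1 limma call. Among all 23579 intervals tested for H3K27ac, limma called 79 higher (0.335%) and 113 lower (0.479%).

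Larger shares of the intervals near genes that handle fatty acids were lost than of all intervals. The list for uptake, binding and activation had 41 of 209 intervals lost (19.6%) and 8 gained (3.83%). Peroxisomal oxidation had 38 of 256 lost (14.8%) and 4 gained (1.56%), and 30 PPARA target genes had 30 of 213 lost (14.1%) and 14 gained (6.57%). These shares stand against 6.12% lost and 4.38% gained over all intervals. None of these lists held an interval past limma, and their median log2 differences over intervals called in all 4 were -0.05, -0.10 and -0.01, beside -0.00 over all intervals. Genes can stand in more than 1 list, and the lists were not tested. Without Ppara KO replicate 2, the shares lost were 23.3%, 16.7% and 15.7%, against 8.98% over all intervals, in libraries whose smallest peaks were 199, 199 and 200 bases wide. Without Ppara KO replicate 1 they were 28.3%, 23.0% and 24.3%, against 16.4% over all intervals. With both Ppara KO livers used, lists outside fatty acid handling fell on both sides of the 6.12% lost over all intervals. Shares lost were 10.4% for hepatocyte identity factors and 10.0% for cholesterol and bile acids. They were 4.03% for circadian clock genes and 3.66% for xenobiotic enzymes.

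**Figure D3:**
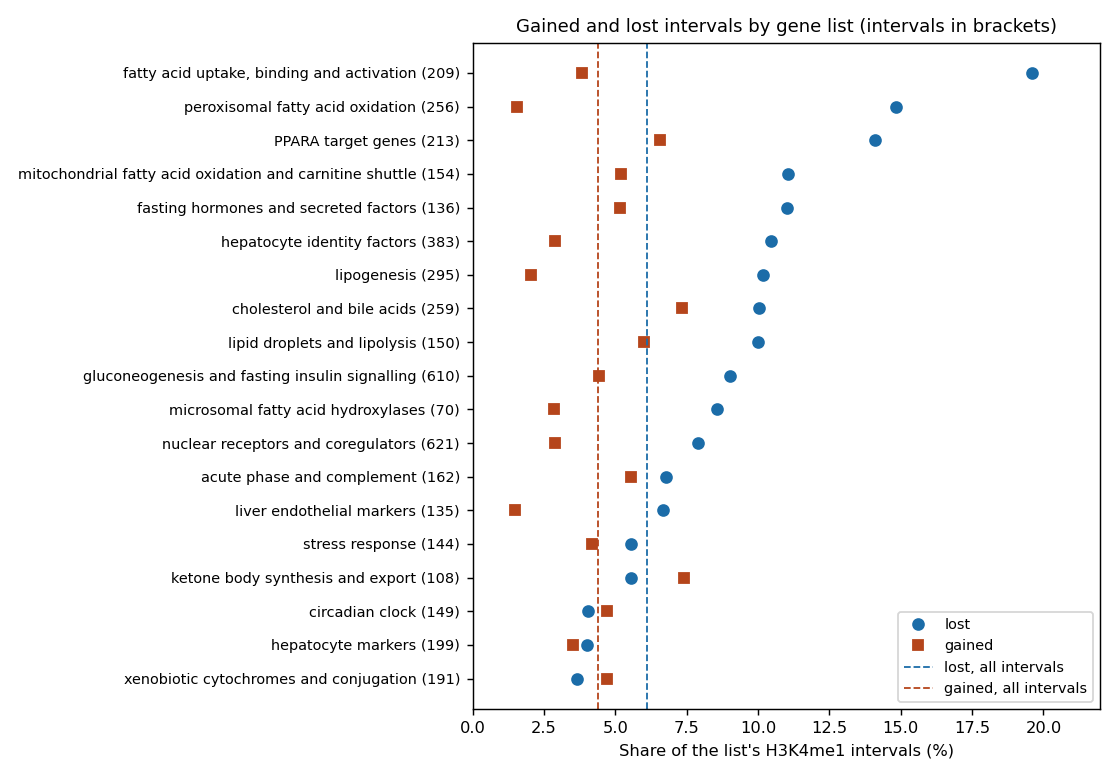
Share of each gene list's H3K4me1 intervals that were lost (circles) or gained (squares), in percent, for lists with at least 50 intervals (number in brackets), with dashed lines at 6.12% and 4.38% for all intervals. The lists for fatty acid uptake, peroxisomal oxidation and PPARA targets lie farthest to the right of the line for lost intervals, at 19.6%, 14.8% and 14.1%.

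Acsl1, the main acyl-CoA synthetase of the liver, which activates long-chain fatty acids, had more lost intervals than any other gene. It had 17 lost of 50, of which 12 lay inside the gene (chr8:46471037-46536051). They had a median WT fold of 5.82, from 3.00 to 10.2, and a median width of 698 bases. The highest, at chr8:46508407-46509479, had 8.18 and 10.2 in the WT livers and 6.4 and 5.0 for H3K27ac there, with no peak of either mark in Ppara KO. It was the only 1 of the 17 with H3K27ac in both WT livers. None of the 17 had a peak in a DKO liver, while 2 had a peak in Cpt2 KO replicate 1 and 9 in replicate 2. The 13 intervals of Acsl1 called in all 4 livers had a median log2 difference of -0.00, from -0.34 to 0.51. Near the start, a gained interval (chr8:46472645-46473961) had Ppara KO folds of 4.40 and 3.36, beside H3K27ac of 25.5 and 37.4 in WT and 7.60 and 8.40 in Ppara KO. Without Acsl1 the uptake list had 24 of 159 lost (15.1%).

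**Figure D4:**
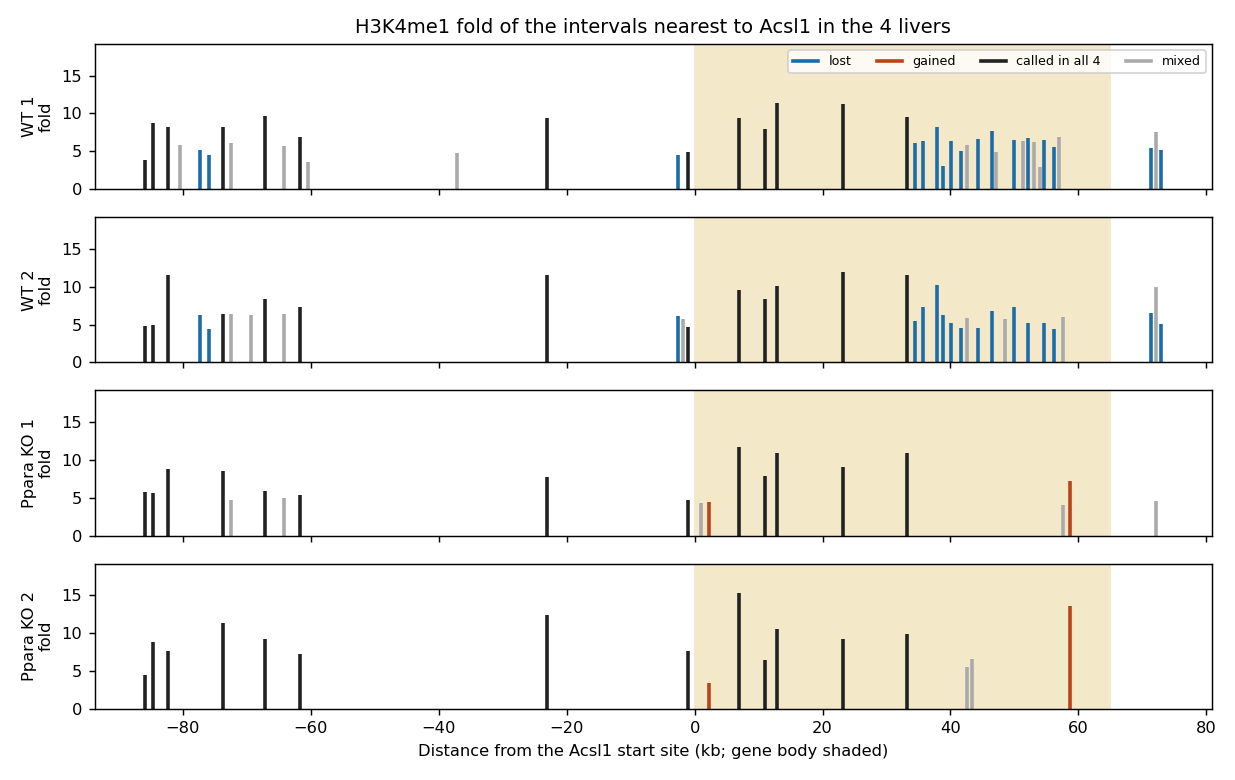
H3K4me1 fold (vertical axes) of each interval assigned to Acsl1 against its distance from the start site in kb, with 1 panel per liver, the gene body shaded and colours for lost, gained, shared and mixed intervals. The gene body carries 12 lost intervals in both WT panels that are missing from both Ppara KO panels, and the 13 intervals called in all 4 livers are seen in every panel.

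Slc27a2, a very-long-chain acyl-CoA synthetase that also transports fatty acids, had 9 lost intervals and 1 gained. Of the lost, 6 lay between 11663 and 17735 bases before the gene and 3 inside it. The highest lower fold was at chr2:126538963-126539588, with 9.01 and 9.27 in WT. None of the 9 had a peak in a DKO liver. Slc27a1 and Acsl5, an acyl-CoA synthetase, had 2 and 3 lost intervals. Acsl4, which prefers arachidonic acid, had 3 gained and 0 lost. The highest of these had folds of 7.61 and 15.9 in Ppara KO at chrX:142489555-142490165. All 3 had a peak in both DKO livers and in Cpt2 KO replicate 1, and 1 had a peak in Cpt2 KO replicate 2.

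Of the peroxisomal genes, 25 of the 26 listed had an interval and 16 had a lost one, beside 2890 of 12935 genes in all. The 25 genes held 256 intervals and the 12935 genes 82337. A gene with more intervals has more chances to hold a lost one, so these gene counts are not on an equal footing. Acaa1b, the thiolase of the last step, had WT folds of 10.8 and 13.4 at a lost interval inside the gene (chr9:119149490-119151627) and H3K27ac of 6.72 and 5.26, with no peak of either mark in Ppara KO. Ehhadh, the bifunctional enzyme, had 2 lost intervals, with 6.80 and 5.0 inside the gene and 5.69 and 6.50 before it. Abcd3, a transporter into the peroxisome, had 5, with WT folds from 4.13 to 7.34. Crot, which exports chain-shortened products as carnitine esters, had 3, with folds from 6.45 to 8.13. Acox2, the oxidase of branched chains and bile acid precursors, had 4 lost. Of the list's 38 lost intervals, 36 had no peak in either DKO liver, a share near that of all lost intervals (88.5%).

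Mitochondrial oxidation had 17 of 154 intervals lost (11%) and 8 gained (5.19%). With both Ppara KO livers used, this lost share was below those of peroxisomal oxidation (14.8%) and PPARA targets (14.1%). Without Ppara KO replicate 1 it was 24.7%, above their shares of 23.0% and 24.3%. Without Ppara KO replicate 2 it was 15.4%, beside 16.7% and 15.7%. The lower share was thus not seen in each Ppara KO liver alone, and the difference between lists was not tested. Eci1, an enoyl-CoA isomerase, had a lost interval with 7.67 and 10.6 in WT (chr17:24429283-24431354), with H3K27ac of 9.67 and 8.56 in WT and none in Ppara KO. Acadm, the medium-chain dehydrogenase, had 3 gained intervals and none lost. At 1 of them (chr3:153928632-153929423), with folds of 5.41 and 5.72, H3K27ac was 9.49 and 10.0 in Ppara KO with no WT peak. All 3 also had an H3K4me1 peak in both Cpt2 KO livers, which keep Ppara, beside 27.7% of all gained intervals. A peak in both DKO livers was found at 2 of the 3. Cpt1a, the outer membrane transferase that is the gate of the pathway, had no gained or lost interval, as was true of Angptl4, a PPARA target that inhibits lipoprotein lipase. At an interval overlapping Angptl4 (chr17:33773200-33779424), folds were 11 and 9.25 in WT and 8.36 and 10.8 in Ppara KO. These 2 genes were singled out after their values were seen.

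Ketone body genes had 6 of 108 intervals lost (5.56%) and 8 gained (7.41%). The gained share was above the background of 4.38% and the lost share below that of 6.12%, and neither was tested.

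Fgf21, the fasting hormone of the liver, had 2 lost intervals beside it. They lay 1273 and 531 bases from the gene, with WT folds of 7.14 and 6.08 and of 8.96 and 7.36. The neighbouring interval, called in all 4 livers, had 10.0 and 8.50 in WT and 5.80 and 5.40 in Ppara KO (log2 difference -0.71, limma adjusted p = 0.451). There H3K27ac was 15 and 18.4 in WT with no peak in Ppara KO. Pdk4, a kinase that holds back pyruvate oxidation in the fast, had 2 gained intervals and 0 lost. Their Ppara KO folds were 4.38 and 7.09 and, inside the gene, 3.78 and 4.89, and both had a peak in both DKO livers and in neither Cpt2 KO liver. Fasting hormones and secreted factors as a list had 15 of 136 lost (11%), 6 of them near Igfbp2, a binding protein of insulin-like growth factors.

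Microsomal hydroxylases had 6 of 70 intervals lost (8.57%) and 2 gained (2.86%). In the Cyp4a cluster, genes of omega-hydroxylation, lost intervals lay at Cyp4a10 (6.51 and 6.57 in WT), Cyp4a14 (6.43 and 5.02) and 7247 bases from Cyp4a31 (6.82 and 8.19). The members of this cluster are near copies of each other, so reads there are uncertain. Lipid droplet genes had 15 of 150 lost (10.0%) and 9 gained (6.00%). Plin2, the coat protein that rises with stored fat, had 4 lost intervals, from 3.00 to 6.18. Plin4 and Plin1, other coat proteins, had folds of 7.33 and 9.67 inside Plin4 and of 9.17 and 10.7 at an interval 1193 bases from Plin1, all with no Ppara KO peak. Hilpda, an inhibitor of lipolysis, had 2 gained intervals, with 6.25 and 8.53 and with 5.12 and 7.37. Both had a peak in both DKO livers and also in both Cpt2 KO livers, which keep Ppara.

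Outside fatty acid oxidation, the list for gluconeogenesis and insulin signalling had 55 of 610 intervals lost (9.02%) and 27 gained (4.43%). Within that list genes differed. Pcx, the pyruvate carboxylase, had 8 lost intervals and no gained ones, Foxo3 had 7 and Insr, the insulin receptor, had 8. Ppargc1a, a coactivator of fasting genes, had 5 gained intervals and 0 lost, with Ppara KO folds from 4.13 to 9.70. All 5 had a peak in both DKO livers, as did 76.1% of all gained intervals. All 5 also had a peak in Cpt2 KO replicate 1, which keeps Ppara, and 1 had a peak in Cpt2 KO replicate 2. Ppargc1b, a relative of Ppargc1a, had 5 lost and 0 gained. Lipogenesis had 30 of 295 lost (10.2%) and 6 gained (2.03%), and 6 of the lost lay inside Fads2, a fatty acid desaturase. Cholesterol and bile acid genes had 26 of 259 lost (10.0%) and 19 gained (7.34%). Abca1, the cholesterol exporter, held 14 of those lost, and Cyp7b1, an oxysterol hydroxylase of bile acid synthesis, held 5 of those gained. Slco1b2, a bile acid importer, had 4 gained. Abca1 and Slco1b2 also had intervals at least 1 log2 apart in both pairs. At an interval 59890 bases from Abca1 (chr4:53218228-53221528), folds were 13.4 and 12.9 in WT and 6.36 and 4.95 in Ppara KO (log2 difference -1.21, limma adjusted p = 0.237). At an interval 14858 bases from Slco1b2, they were 4.43 and 5.17 in WT and 9.27 and 13.8 in Ppara KO (log2 difference 1.26, limma adjusted p = 0.256).

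Hepatocyte identity factors had 40 of 383 lost (10.4%) and 11 gained (2.87%), with 11 lost intervals near Foxa2 and 6 near Onecut1. Nuclear receptors and coregulators had 49 of 621 lost (7.89%) and 18 gained (2.90%). Thrb, the thyroid hormone receptor, had 13 of those lost, and Nr1h4, the bile acid receptor, had 8. Pparg, a relative of Ppara, had 3 gained and none lost. At the interval inside it (chr6:115462252-115463061), folds were 5.0 and 5.18 in Ppara KO, with H3K27ac of 25.6 and 23.3 there and no WT peak of either mark. All 3 had an H3K4me1 peak in both DKO livers and in Cpt2 KO replicate 1, and 2 had one in Cpt2 KO replicate 2. For circadian clock genes the counts were 6 lost and 7 gained of 149, for acute phase and complement 11 and 9 of 162, for stress response 8 and 6 of 144, and for xenobiotic enzymes 7 and 9 of 191.

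By gene, lost intervals were most numerous after Acsl1 at Slc22a23 (15 of 60), Abca1 (14 of 43), Foxn3 (14 of 111), Gse1 (13 of 106), Thrb (13 of 75), Arid1b (11 of 94) and Foxa2 (11 of 60). Gained intervals were most numerous at Rad51b (10 of 66) and Trib1 (10 of 46), followed by Ets1 (8 of 57), Frmd4b, Mbnl2 and Zbtb20 (7 each), and Arf6 and Bcas3 (6 each). Trib1 encodes a pseudokinase that sets the level of C/EBP proteins, and its gained intervals had folds from 4.0 to 17.8. Of the 10, 5 had H3K27ac in both Ppara KO livers and in neither WT liver, beside 16.5% of all gained intervals. These genes run from 3831 bases (Arf6) to 758704 (Zbtb20), and a gene with more intervals has more chances to be on such a list.

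Lost intervals lay inside genes more often than gained ones. Of the lost, 75.6% had their middle inside a gene body, compared with 56.6% of the gained and 69.2% of all. Another lost interval lay within 10000 bases for 43.4% of the lost, and another gained interval for 24.0% of the gained. For the 24616 intervals called in all 4 livers this was 75.5%, and the share grows with the number of intervals in a set. A start site of the RefSeq table, which lacks some genes, lay within 1000 bases for 7.33% of the lost, 9.04% of the gained and 8.52% of all. Median widths were 546 bases for lost, 713 for gained and 1673 for intervals called in all 4.

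In H3K4me1 libraries of Cpt2 KO and DKO livers, which share no library with the comparison, the call patterns followed the Ppara genotype in part. Gained intervals had a peak in 80.4% and 87.5% of cases in the DKO livers, beside 49.2% and 53.3% of all intervals. Lost intervals had a peak in 6.97% and 7.98% of cases there. The Cpt2 KO livers, which keep Ppara, differed from each other. Replicate 1 had a peak at 71.9% of the gained and 20.3% of the lost intervals, and replicate 2 at 34.7% and 57.3%. The full pattern, called in both DKO and neither Cpt2 KO liver, was met by 397 gained intervals (11%; 3.01% of all intervals), and the opposite by 30. For lost intervals, 622 were called in both Cpt2 KO and neither DKO liver (12.4%; 2.81% of all), and 11 the other way.

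The smallest peak width moved with these calls. It was 211 bases in Cpt2 KO replicate 1 and 196 in replicate 2, and 210 and 221 in the DKO livers, so that Ppara KO replicate 2, Cpt2 KO replicate 1 and both DKO livers were the libraries with the wider smallest peaks. Among the wider libraries alone, 514 gained intervals were called in both DKO livers and not in Cpt2 KO replicate 1 (14.2%; 5.47% of all intervals), against 74 the other way (2.05%; 4.51% of all). For lost intervals the numbers were 58 (1.15%) and 711 (14.1%). Among WT and Ppara KO replicate 1, all narrower libraries, 71336 intervals were called. Ppara KO replicate 1 lacked 6403 that both WT livers had (8.98%) and held 10311 that neither had (14.5%). The first count needs 2 WT peaks and the second 1 Ppara KO peak, so they cannot be set against each other. The gained and lost intervals were themselves chosen with a wider Ppara KO library against narrower WT ones. The share of all these calls that goes with width was not tested.

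H3K27ac, a mark the choice did not use, differed in the same direction at these intervals. Its libraries carry the same sample numbers in their peak names as the H3K4me1 libraries and are read as the same livers, and their smallest peak widths overlapped between the genotypes, at 206 and 198 bases in WT and 205 and 210 in Ppara KO. At gained intervals a peak was called in 31.3% and 29.1% of cases in WT and in 54.1% and 53.5% in Ppara KO. At lost intervals the shares were 22.8% and 21.5% in WT and 9.41% and 7.83% in Ppara KO. Over all intervals they were 38.3% and 37.9% against 38.0% and 37.5%. H3K27ac was called in both Ppara KO and neither WT liver at 596 gained intervals (16.5%; 3.37% of all intervals), and the other way at 11. It was called in both WT and neither Ppara KO liver at 403 lost intervals (8.0%; 3.2% of all), and the other way at 14. A peak of H3K27ac in any of the 4 livers was found at 61.9% of the gained and 29.4% of the lost intervals, beside 50.6% of all.

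**Figure D5:**
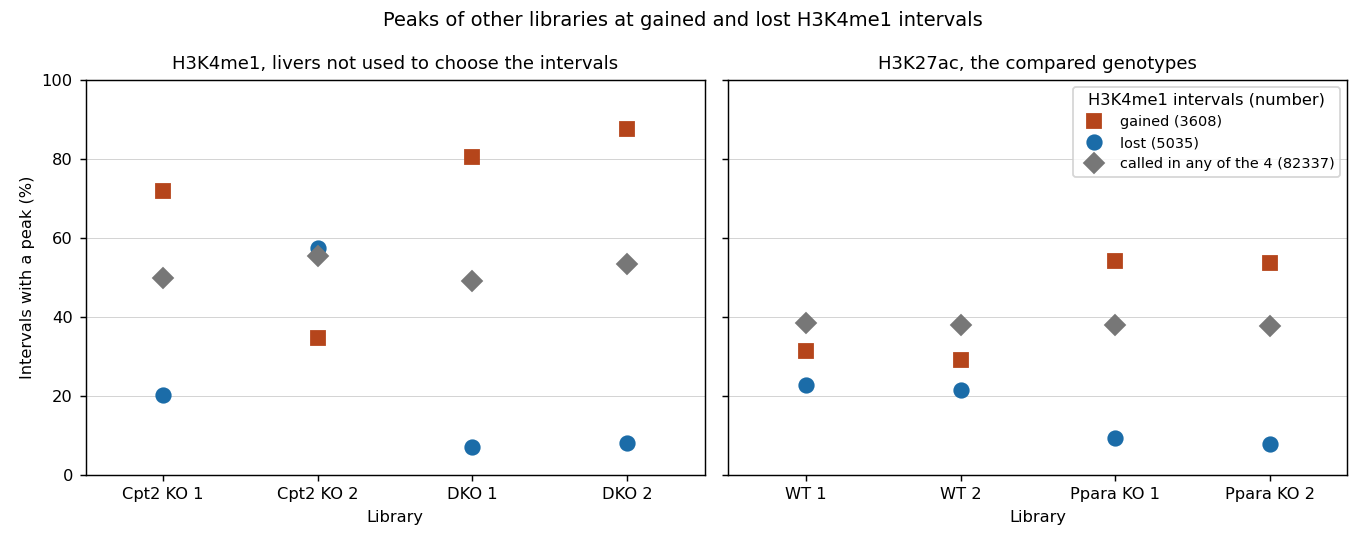
Share of gained (squares), lost (circles) and all (diamonds) H3K4me1 intervals with a peak, in percent, in the 4 H3K4me1 libraries of Cpt2 KO and DKO livers (left) and in the 4 H3K27ac libraries of WT and Ppara KO livers (right). Both DKO livers lie at 80.4% and 87.5% for gained and at 6.97% and 7.98% for lost intervals, the Cpt2 KO livers differ from each other, and H3K27ac at gained intervals is at 54.1% and 53.5% in Ppara KO and at 31.3% and 29.1% in WT.

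The lists could be read the same way. Of the 30 lost intervals near PPARA targets, 27 had a peak in at least 1 Cpt2 KO liver and 25 in neither DKO liver, beside 3036 and 4456 of all 5035 lost intervals. H3K27ac was called in both WT and neither Ppara KO liver at 8 of the 30, beside 403 of all 5035 lost intervals. Of the 41 lost in the uptake list, 25 had a Cpt2 KO peak and 38 had none in DKO. All 8 gained intervals near ketone body genes had a peak in both DKO livers, as did 2747 of all 3608 gained intervals (76.1%). No test was run on these counts.

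At Ppara itself (chr15:85734910-85806851), 29 intervals inside the gene were called in at least 1 liver and 14 in all 4. Their log2 differences ran from -0.63 to 0.78, with 0.439 as the lowest limma adjusted p. Of the 29, 2 were lost and 0 gained. The lost ones, at chr15:85756556-85757165 and chr15:85784770-85785299, had WT folds of 5.74 and 5.17 and of 8.52 and 4.56, and neither had a peak in a DKO liver. Just beyond the gene, 3 further lost intervals were assigned to its neighbour Cdpf1, and the first of them (chr15:85807237-85808143) had 4.33 and 3.44 in WT. The mark is no measure of the deletion, and the deleted part of the gene is not given in the sources used here.

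Markers of other liver cells were read in the same way. Among Kupffer cell and macrophage markers 2 of 14 intervals were gained, at Csf1r and Cx3cr1, and 0 lost. Among endothelial markers 2 of 135 were gained and 9 lost, 4 of them at Egfl7. Stellate cell markers had 1 gained and 1 lost of 16, cholangiocyte markers 0 gained and 3 lost of 44, and lymphocyte markers none of 13. An interval 65011 bases from Epcam, a cholangiocyte marker, was called in all 4 livers, at 4.63 and 4.74 in WT and 9.83 and 12.7 in Ppara KO (log2 difference 1.27, limma adjusted p = 0.237). Hepatocyte markers had 7 gained (3.52%) and 8 lost (4.02%) of 199. The part of cell composition in the calls was not tested.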

How the data were processed

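Chromatin from mouse liver was immunoprecipitated for H3K4me1 and H3K27ac. Reads were aligned with BWA to mm10 and peaks called with MACS2 2.1.0, per the submitters' processing notes. The deposited peak lists, 1 per library, give the authors' fold enrichment, a linear ratio over input, and a −log10 q per peak. The deposited consensus gives positions. Replicate numbers come from the labels and pair no animals: deviations of same-numbered livers correlated at -0.0692. Read depth is unknown, so counting error could not be given. 

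The highest fold among the peaks overlapping an interval by at least 1 base was taken in log2 and centred on each library's median over the intervals called in all 4 livers. Limma 3.58.1 (lmFit, eBayes with trend) in R 4.3.3 compared genotypes, with Benjamini-Hochberg adjustment over all intervals tested. On simulated data with independent normal spread it recovered 97 of 100 differences of 1.5 log2. Those data held no liver that stands apart as Ppara KO replicate 2 did. The count is thus a check of the code and no measure of power in these livers. Measured differences of -1.64 near Cebpb and 1.74 near Diras2 did not pass. Python 3.11.15, numpy 2.4.6, pandas 2.3.3 and matplotlib 3.10.9 did the rest. Genes came from a RefSeq table of 21896 protein-coding gene bodies.

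Named were the 12 lost and 12 gained intervals with the highest lower fold, within 100000 bases of a gene and 1 per gene, and the 12 in each direction with the largest smaller pair difference. List members with a gained or lost interval or at least 1 log2 in both pairs, Ppara, and the 8 genes with most gained or most lost intervals were also eligible. Members and lists were chosen with earlier results of these data known. Alternatives changed the centring, overlap, q threshold, treatment of missing peaks, model and livers. Results for some genes are not reported here.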

Additional observations from a re-analysis of the deposited data

How the results depend on the processing

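With 2 livers a group and peak lists in place of reads, a missing peak may be one just under the authors' threshold. Limma's count of 0 among shared intervals held under 7 of the other settings that keep all 4 livers, among them quantile normalization, no centring and the smallest peak width as a covariate. It became 27 with the replicate block (12 higher, 15 lower), which pairs livers that share only a number. It became 8321 where missing peaks were filled with the library's lowest fold, which makes filled values alike by construction. Leaving out a liver gave 0 to 6, with the 6 found without Ppara KO replicate 2.

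The 28 intervals at least 1 log2 higher in both pairs became 12 at a −log10 q of at least 10, 2244 with filled values, and 266 to 973 without a liver. The 39 lower became 2987 with filled values and 293 to 933 without a liver. Fewer pairs to agree on give more intervals by construction. Where the called group needed a −log10 q of at least 10, a setting chosen after seeing the data, 2037 intervals were gained and 2614 lost. Those with the DKO and Cpt2 KO pattern were then 179 gained and 367 lost, and those with the H3K27ac pattern 396 and 216. Leaving out a liver gave 5347 to 14609 gained and 6403 to 12375 lost. It gave 469 to 1637 gained and 709 to 1122 lost with the DKO pattern, and 899 to 2124 and 587 to 1276 with the H3K27ac pattern. Another planned setting for calls equals that at −log10 q of at least 10 and has no value of its own. Over all settings the limma adjusted p of the Cebpb interval ran from 0.000452 (replicate block) to 0.752. No named interval changed sign. The order of the counts did turn: gained intervals outnumbered lost ones without either Ppara KO liver (14609 and 12375 without replicate 1, 10311 and 6403 without replicate 2). Without a WT liver, lost intervals outnumbered gained ones (12134 and 5521 without WT replicate 1, 10379 and 5347 without WT replicate 2). A group with 1 liver left needs a peak in that liver only, so its pattern is met more easily by construction. Intervals at least 1 log2 higher outnumbered lower ones without WT replicate 1 (973 and 915).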

Other observations

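Gained intervals near start sites had H3K27ac values in the opposite direction to gained intervals elsewhere. Within 1000 bases of a start site listed by RefSeq in the table used, which lacks some genes, 162 of 326 gained intervals had H3K27ac in all 4 livers, and 104 of these (64.2%) had a lower value in Ppara KO (median log2 difference -0.17). Farther away, 216 of 680 (31.8%) were lower (median 0.28). Over all intervals called, 72.6% were lower within 1000 bases (median -0.28) and 51.2% beyond (median -0.02). The lower values near starts were thus also seen over all intervals, and the difference was not tested.

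Acads and Slc25a20 were singled out after their values were seen. At the gained interval 679 bases after the start of Acads, the short-chain acyl-CoA dehydrogenase, H3K4me1 folds were 5.0 and 4.95 in Ppara KO with no WT peak. H3K27ac there was 18.8 and 30.7 in WT and 8.50 and 10.7 in Ppara KO. At Slc25a20, the carnitine carrier of mitochondria, the gained interval lay 1018 bases after the start, just outside the window. Its H3K4me1 folds were 4.84 and 5.59, and H3K27ac was 14.6 and 21.7 in WT and 6.41 and 3.78 in Ppara KO. At both genes the H3K27ac values of the groups did not overlap, but how often this happens over all intervals was not counted. For H3K4me1 it happened at 19.5% (higher) and 21.1% (lower) of the intervals called in all 4 livers.

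Within 10 Mb of Ppara, 99 of 1282 intervals were lost (7.72%) and 29 gained (2.26%). Over all of chromosome 15 the shares were 7.71% and 4.16%, and over all intervals 6.12% and 4.38%.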
